A study of Mus musculus with 10 samples.

Results

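Potassium channel genes were followed in RNA from hippocampal synaptoneurosomes, which are resealed synaptic compartments, with pre- and postsynaptic parts, usually obtained by gentle homogenisation and filtration. The members were all genes of the deposited gene table whose symbol begins with Kcn, followed by further lower-case letters and a digit. The rule found 93 of 22255 genes, in 15 subfamilies. All animals were wild-type C57Bl/6J mice. A group of 5 libraries came from animals given vehicle, and the other group of 5 from animals given AM6545, a peripherally restricted antagonist of the cannabinoid CB1 receptor, over a sub-chronic course. Dose, duration, age, sex, and whether a library came from 1 animal or from pooled animals are not stated in the labels, so p-values measure the spread between these libraries. The comparison asked whether treatment with AM6545 was accompanied by a difference in synaptic RNA.

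Potassium channels let potassium ions leave the cell. They set the resting potential, repolarise the action potential, and limit firing and transmitter release. Voltage-gated (Kv) channels are tetramers of pore-forming alpha subunits, with auxiliary subunits that change their trafficking and kinetics. Inward rectifiers (Kir) and leak channels (K2P) act near rest, and BK and SK channels are opened by calcium. In the hippocampus, Kv4 channels carry the dendritic A-type current, Kv7 channels carry the M-current that muscarinic receptors suppress, and GIRK channels of the Kir family are opened by G protein beta-gamma subunits released by Gi/o-coupled receptors, the class to which CB1 belongs.

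Of the 93 members, 67 encode pore-forming subunits, 10 encode electrically silent Kv alpha subunits that form channels only together with Kv2 subunits, and 16 encode auxiliary subunits. The pore-forming subunits share a selectivity filter, a short stretch of the pore that passes potassium and excludes sodium. Its codons were searched for in frame, on the coding strand, in the most abundant protein-coding transcript of each member (GENCODE M21, mm10). The search was for 5 codons in a row: a first codon beginning with AC, TC or AG, then a codon with T in the middle, a glycine codon (GGN), a codon beginning with T and another glycine codon. Codons beginning with AC encode threonine and those beginning with TC serine, while AG begins serine and arginine codons. The 3 forms differ in their first bases and cannot match at the same place. At least 1 of the 3 was found in 64 of 67 pore-forming members, in 10 of 10 silent members and in 0 of 16 auxiliary members, against 2.06% of 20947 coding transcripts of all genes (0.869% for the AC form, 0.621% for TC and 0.587% for AG). The 3 pore-forming members without these letters were Kcnk1, Kcnk7 and Kcnu1. For Kcnk1 the transcript searched was its longest coding one, with 1008 coding bases. Filters written with other codons were outside the search, so a member without these letters may still have a filter. For Kcnk7 and Kcnu1 the transcripts searched had 699 and 1143 coding bases. Longer listed transcripts of these genes, with 1029 and 3363 coding bases, were not searched. In 10 of the 14 K2P genes the letters occurred in a pair of places, and each K2P subunit carries 2 pore domains. Kcnk16 had 0 counts, so none of its transcripts was the most abundant. The one searched had 486 coding bases, where another has 876.

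These 30-base stretches are shown because such codons were found in 64 of 67 pore-forming members and 0 of 16 auxiliary members. Capitals mark the 15 bases of the filter codons.
Kcna1: atgaccACTGTGGGATACGGTgacatgtac
Kcnc1: atgacgACACTGGGCTATGGAgacatgtat
Kcnd2: atgacaACACTGGGGTATGGCgacatggta
Kcnh3: ctcaccAGTGTGGGCTTCGGCaacgtgtcc
Kcnma1: atgtctACAGTGGGTTATGGGgacgtttat
Kcnn1: ttcttgTCCATTGGCTATGGAgacatggtg
Kcnj3: gaggccACCATCGGCTATGGCtaccgctac
Kcnj9: gagaccACCATCGGCTATGGGcaccgggtc
Kcnj13: caacttACAATTGGTTATGGTaccatgttt
Kcng1: atgacaACCGTAGGCTACGGAgacatggta
Kcnk2, the first of its pair: atcacaACCATAGGATTTGGAaacatctcc
Kcnk2, the second of its pair: ctgacgACCATTGGATTTGGAgactacgtg
In mm10 the capitals of Kcna1 lie at chr6:126642228-126642242 (minus strand), those of Kcnj3 at chr2:55437627-55437641 (plus strand), those of Kcnj9 at chr1:172326184-172326198 (minus strand), those of Kcnj13 at chr1:87389021-87389035 (minus strand) and those of Kcng1 at chr2:168262641-168262655 (minus strand), each within a coding exon. Kcnh3, of the ELK group, has a serine codon of the AG form and Kcnn1, of the SK group, one of the TC form. Over whole subfamilies the TC or AG form was found in 7 of 8 EAG, ERG and ELK genes and 3 of 4 SK and IK genes. In the Kv1, Kv3, Kv4 and silent genes the AC form was the form found in every member.

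Library totals of the gene table ranged from 18106011 to 25899665 counts, so that 3 counts correspond to 0.116 to 0.166 CPM (counts scaled to library size), a limit that covers counting error only. Synapse markers (Syn1, Syp, Snap25, Dlg4, Shank1 and Arc) summed to 5889 to 6918 CPM under vehicle and 5318 to 6487 CPM under AM6545. Markers of other cells were also present. The oligodendrocyte list (6 genes) summed to 14405 to 20918 CPM under vehicle and 12230.0 to 28202 CPM under AM6545, the astrocyte list (6 genes) to 1963 to 2515 CPM under vehicle and 1916 to 2932 CPM under AM6545, and the choroid plexus list (10 genes) to 430.0 to 9919 CPM under vehicle and 2188 to 7642 CPM under AM6545. No gene of the 12 marker lists was at 0 in every library. In RNA from a mixed preparation, fewer compartments or cells of a type and less RNA in each cannot be told apart.

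Of the 93 members, 91 had a count in at least 1 library, 82 had a count in every library, and 77 passed the expression filter. Kcnj1, a Kir channel known from the kidney, and Kcnk16 had 0 counts in all 10 libraries. Of the 16 members that did not pass, Kcng3, Kcnj5, Kcnmb1, Kcnn4 and Kcnq1 had 2 to 22 counts in every library. Kcna7, Kcna10, Kcne1, Kcnj15, Kcnk7, Kcnk15, Kcnk18, Kcnmb3 and Kcnv2 had 0 counts in at least 3 libraries and at most 6 in any. These include genes known from muscle, inner ear, retina and pancreas.

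Levels were compared between genes per length, as TPM (transcript abundance per length, scaled to a common library total) computed from the estimated counts and annotated transcript lengths. All members together held 1837 ± 232 TPM under vehicle and 1782 ± 127 TPM under AM6545 (± SD, n = 5 per group). Pore-forming members held 62.9% of this, auxiliary members 29.7% and silent members 7.38%. The total includes Kcnj13 (162 ± 98.2 TPM under vehicle, 98.4 ± 63.7 TPM under AM6545) and Kcne2 (34.5 ± 19.8 and 21.2 ± 15.8 TPM). These tested members varied most between libraries. Auxiliary members summed to 532 ± 86.2 and 541 ± 42.9 TPM, and silent members to 131 ± 17.5 and 136 ± 9.07 TPM. The mean over the 10 libraries was at or above 50 TPM for 11 members, at or above 10 TPM for 42, from 1 to 10 TPM for 28 and below 1 TPM for 23. Kcnk1 was the most abundant at 178 ± 19.9 TPM (SD, n = 10), followed by Kcnj13 at 129.9 ± 84.9 TPM, Kcnip2 at 106 ± 19.7 TPM, Kcnab1 at 93.4 ± 16.3 TPM and Kcnn2 at 80.7 ± 8.02 TPM. Next were Kcnc1 at 79.5 TPM, Kcna1 at 71.1 TPM, Kcnip3 at 65.8 TPM, Kcnma1 at 63.6 TPM, Kcnip4 at 61.4 TPM and Kcnab2 at 59.2 TPM. The ranges of neighbours in this order overlapped across libraries at each of these steps, so the order of adjacent genes is not resolved. The order is also sensitive to transcript length: with the gene count divided by its longest annotated transcript, Kcnc1 was at 32.9 TPM and Kcnb2 at 4.395 TPM, against 79.5 and 9.03 TPM.

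**Figure D1:**
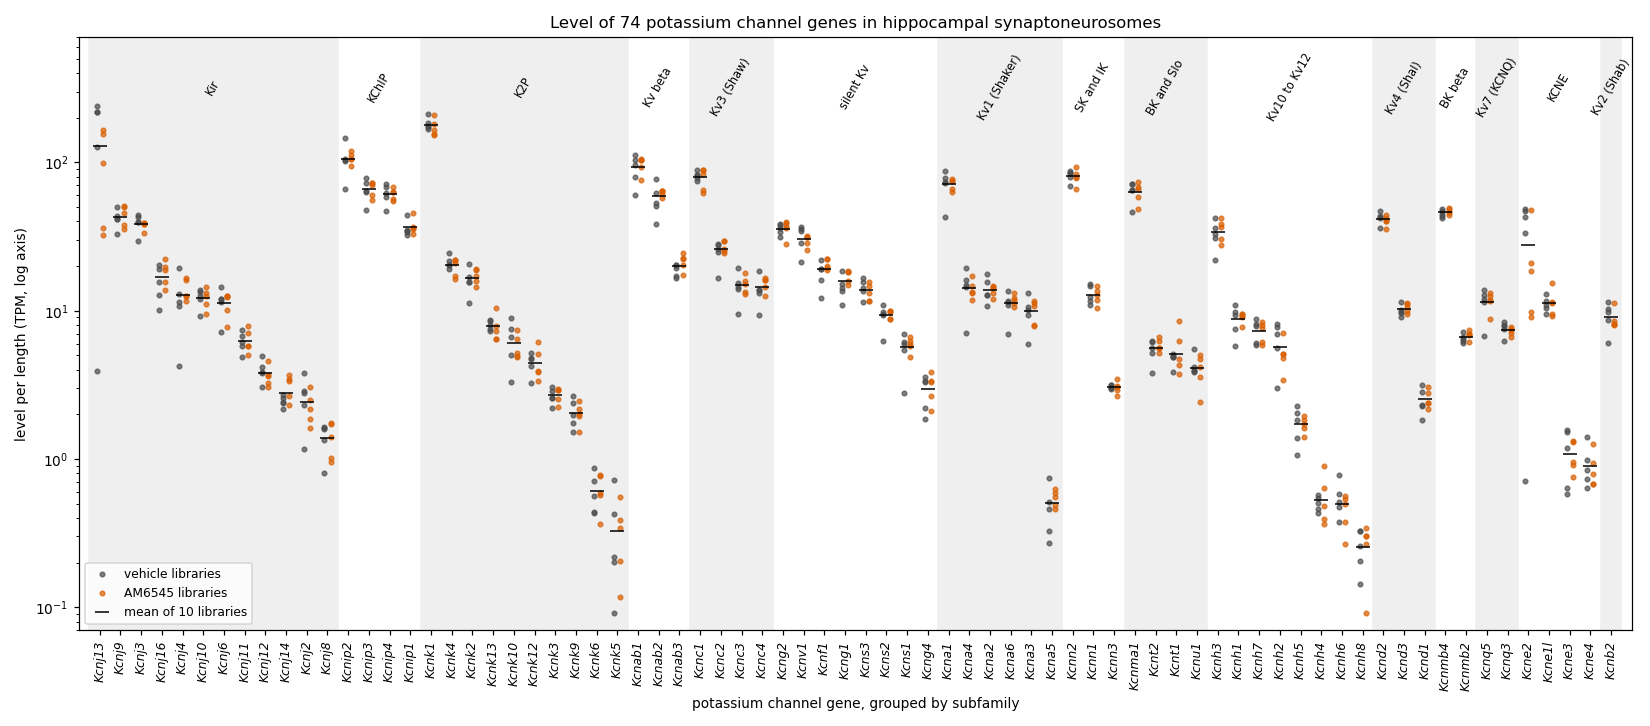
Level per length (TPM, log axis) of 74 of the 77 members that passed the expression filter, grouped by subfamily along the horizontal axis. Each point is a library, grey for vehicle and orange for AM6545, and the bar is the mean of 10 libraries; Kcnk1 is highest at 178 TPM, and Kcnj13 and Kcne2 each have 1 vehicle library far below the rest.

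Among Kv alpha subunits, the Kv3 genes, which serve fast repolarisation in fast-spiking cells and terminals, summed to 134 ± 12.8 TPM under vehicle and 135 ± 17.3 TPM under AM6545 (± SD, n = 5 per group). Kcnc1 led them at 79.5 TPM and Kcnc2 followed at 25.9 TPM. With gene counts divided by the longest transcript they were at 32.9 and 30.5 TPM, so the size of this lead depends on the transcript lengths used. The Kv1 genes, low-threshold channels of axons and terminals, summed to 120.4 ± 28.2 TPM under vehicle and 121 ± 10.7 TPM under AM6545 (± SD, n = 5 per group). Within Kv1, Kcna1 was far above Kcna4 (14.2 TPM), Kcna2 (13.8 TPM), Kcna6 (11.4 TPM) and Kcna3 (9.89 TPM), and Kcna5 was at 0.503 TPM. Exons of the antisense gene Gm26673, which is not in the gene table, overlap 39.6% of the exonic bases of Kcna6 on the opposite strand, and use of strand in counting is not stated. The range of Kcna1 over the libraries, 43.1 to 86.96 TPM, did not overlap that of Kcna4, 7.03 to 19.4 TPM.

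In the Kv4 group, Kcnd2 stood at 41.5 ± 3.496 TPM (SD, n = 10), above Kcnd3 at 10.2 TPM and Kcnd1 at 2.52 TPM. The KChIP genes, whose products bind Kv4 channels and shape the A-type current, were higher as a group at 267 ± 51.1 TPM under vehicle and 273 ± 21.5 TPM under AM6545 (± SD, n = 5 per group). All 4 KChIP genes were above 30 TPM, with Kcnip1 lowest at 36.7 TPM. The Kv beta genes, cytoplasmic partners of Kv1 channels, summed to 165 ± 35.4 TPM under vehicle and 180.3 ± 16.6 TPM under AM6545 (± SD, n = 5 per group), led by Kcnab1 and Kcnab2 with Kcnab3 at 20.1 TPM.

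Of the Kv7 genes, whose products form M-channels, Kcnq5 was at 11.5 TPM and Kcnq3 at 7.45 TPM. Kcnb2, a Kv2 delayed rectifier of the soma and dendrites, was at 9.03 TPM. The silent subunits that assemble with Kv2 summed to 131 ± 17.5 TPM under vehicle and 136 ± 9.07 TPM under AM6545 (± SD, n = 5 per group). Kcng2 (35.7 TPM), Kcnv1 (30.6 TPM), Kcnf1 (19.2 TPM), Kcng1 (15.9 TPM) and Kcns3 (13.8 TPM) led the silent subunits. Of the EAG, ERG and ELK genes, Kcnh3 was highest at 34.01 TPM, and the cardiac repolarisation gene Kcnh2 was at 5.71 TPM.

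Calcium-activated channels were led by Kcnn2, an SK channel of dendritic spines, and Kcnma1, the BK channel pore. Kcnn1 was at 12.8 TPM and Kcnn3 at 3.05 TPM. Kcnmb4, the neuronal BK beta subunit, was at 46.05 ± 2.46 TPM (SD, n = 10). It had the smallest coefficient of variation of all 77 tested members, 4.75% over the 10 libraries on the CPM scale. The BK beta gene Kcnmb2 was close to it, at 4.79%. Exons of the antisense genes Kcnmb4os1 and Kcnmb4os2, which are not in the gene table, overlap 10.7% and 20.9% of the exonic bases of Kcnmb4 on the opposite strand. Of Kcnmb4-201, its transcript with an annotated coding sequence, they overlap 25.97% and 50.69%. The sodium-activated channels Kcnt1 and Kcnt2 were at 5.12 and 5.62 TPM.

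Kcnk1, a leak channel gene expressed in neurons and glia, held 74.4% of the K2P sum. The mechanosensitive leak channel Kcnk2 was at 16.6 TPM and Kcnk4, of the same group, at 20.5 TPM. Exons of Catsperz, on the same strand, overlap 13.15% of the exonic bases of Kcnk4, so the reads of these genes may not be separable. The microglial leak channel Kcnk13 was at 7.84 TPM, and the acid-sensitive channels Kcnk3 and Kcnk9 were at 2.68 and 2.04 TPM.

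For the treatment comparison, 0 of the 77 tested members passed a Benjamini-Hochberg adjusted threshold of 0.05 in edgeR's quasi-likelihood test (smallest adjusted p = 0.9998), and 0% of the 14358 tested genes passed it. DESeq2's Wald test also called 0 members and 0% of all genes, and limma-voom with sample quality weights called 0 members and 0.00696% of all genes. At an unadjusted p under 0.05 edgeR gave 1 member (1.30%), Kcng1, against 1.88% of all tested genes. DESeq2 gave 1 member, against 1.92% of all tested genes, and limma-voom 4 members (Kcng1, Kcnj14, Kcnj2 and Kcnb2), against 4.92%. For 0 members did all 5 AM6545 libraries lie above or all below the 5 vehicle libraries, which 0.293% of tested genes did.

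The estimated differences of the members were small. Of the 77, 34 were higher and 43 lower in AM6545 libraries, with a median log2 fold change of -0.0072 beside -0.0057 over all tested genes. The log2 fold change was under 0.1 in size for 52 members and over 0.3 for 3, Kcnj13, Kcne2 and Kcnh6. The 95% interval of the difference, unadjusted for the number of genes, lay within 1.5-fold in either direction for 64 of 77 members (83.1%), where 80.4% of all tested genes did. It lay within 2-fold for 75 members. Of the 13 members whose interval reached past 1.5-fold, 10 were at or below 2.77 TPM (Kcna5, Kcne3, Kcne4, Kcnh4, Kcnh6, Kcnh8, Kcnj2, Kcnj8, Kcnj14 and Kcnk5). The other 3 were Kcnj13, Kcne2 and Kcnj4.

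**Figure D2:**
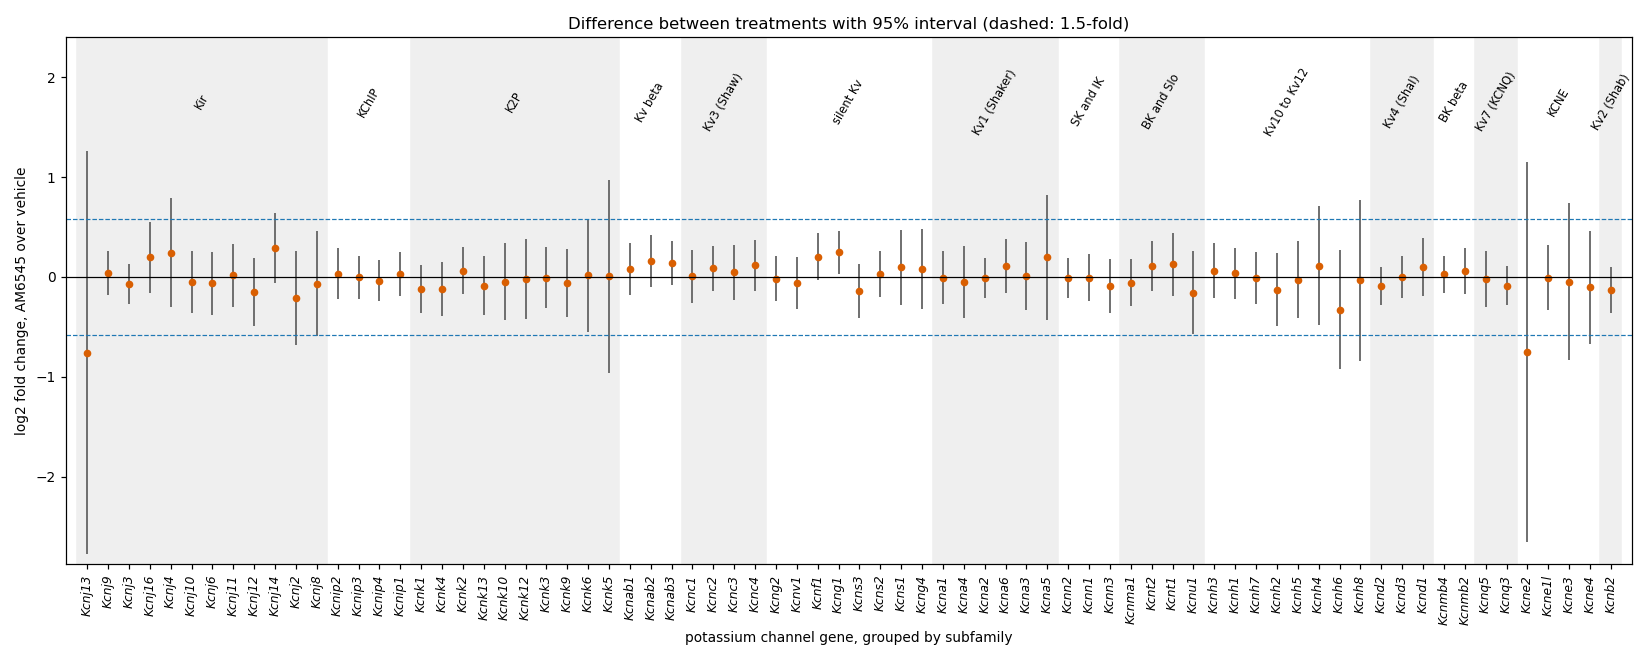
Log2 fold change of AM6545 over vehicle libraries for 74 of the 77 tested members (points) with the 95% interval from edgeR's quasi-likelihood fit (lines), grouped by subfamily. Dashed lines mark 1.5-fold; of all 77 intervals 64 lie between them, and the widest belong to Kcnj13 and Kcne2.

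Directions by subfamily are given for some subfamilies only. The Kv beta genes (3 of 3), the Kv3 genes (4 of 4) and the tested BK beta genes (2 of 2) had fold changes above 0, with medians of 0.14, 0.066 and 0.042 on the log2 scale. The tested SK genes (3 of 3) were below 0, with a median of -0.011. These counts were the same with DESeq2 size factors and with scaling by total counts, which shift all genes nearly alike. The KCNE genes were also below 0 (4 of 4), but 3 of 4 with scaling by total counts. With single libraries left out, Kcnab1 ranged from -0.0056 to 0.15, Kcnc1 from -0.068 to 0.087 and Kcnn2 from -0.059 to 0.043. The counts of the Kv beta, Kv3 and SK genes thus depended on single libraries. Apart from Kcng1 among the silent subunits, no subfamily had a member at an unadjusted p under 0.05 in edgeR, and none of these directions is a call.

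The GIRK genes are effectors of Gi/o-coupled receptors. Kcnj3 (ENSMUSG00000026824.12, chr2:55435970-55598145, plus strand), which encodes the common GIRK subunit, was at 75.6, 92.97, 93.8, 93.7 and 94.8 CPM in vehicle libraries 1 to 5 and at 87.5, 88.2, 89.6, 89.5 and 75.4 CPM in AM6545 libraries 1 to 5. In each group 1 library was low, vehicle replicate 1 and AM6545 replicate 5, and the groups overlapped (log2 fold change -0.068 ± 0.095 SE, 95% interval -0.27 to 0.13). Kcnj9 (ENSMUSG00000038026.13, chr1:172320501-172329318, minus strand) was at 64.6, 79.3, 72.4, 77.2 and 72.7 CPM under vehicle and at 82.7, 64.98, 81.7, 83.8 and 63.3 CPM under AM6545. Of the AM6545 values, 3 lay above and 1 below the whole vehicle range (log2 fold change 0.040 ± 0.11 SE, 95% interval -0.18 to 0.26). Kcnj6 (ENSMUSG00000043301.17, chr16:94748636-94997701, minus strand) was at 10.05, 15.9, 15.7, 14.9 and 13.7 CPM and at 14.6, 9.77, 15.7, 15.1 and 12.02 CPM (log2 fold change -0.065 ± 0.15 SE, 95% interval -0.38 to 0.25), with overlapping groups. Per length, Kcnj9 (42.9 TPM) and Kcnj3 (38.5 TPM) had overlapping ranges, Kcnj6 was lower at 11.3 TPM, and Kcnj5, the GIRK subunit of heart atria, was at 0.117 TPM.

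The members are given next by the size of the unadjusted p, 6 in each direction. Kcng1 (ENSMUSG00000074575.5, chr2:168260117-168281736, minus strand), a silent partner of Kv2, was at 25.6, 33.6, 30.03, 29.04 and 30.01 CPM in vehicle libraries 1 to 5 and at 37.6, 31.4, 38.7, 36.7 and 31.3 CPM in AM6545 libraries 1 to 5, on 527 to 968 counts per library. In AM6545 libraries 3 values lay above every vehicle value and the other 2 lay within the vehicle range. Its mean was 29.6 ± 2.86 CPM under vehicle against 35.1 ± 3.54 CPM under AM6545 (± SD, n = 5 per group). The difference was short of the threshold (log2 fold change 0.25 ± 0.10 SE, 95% interval 0.029 to 0.46, edgeR adjusted p = 0.9998). Kcnf1, another silent subunit, was at 34.2, 49.1, 40.97, 48.7 and 45.9 CPM and at 47.9, 48.4, 55.9, 54.5 and 45 CPM (log2 fold change 0.20 ± 0.11 SE, 95% interval -0.033 to 0.44). For Kcnf1, 2 AM6545 libraries lay above all vehicle libraries. Kcnj14, a Kir channel gene, was at 4.08, 2.98, 3.11, 3.44 and 3.61 CPM and at 4.51, 3.67, 3.25, 4.74 and 4.895 CPM (log2 fold change 0.29 ± 0.17 SE, 95% interval -0.059 to 0.65), on 59 to 116 counts. Of its 31-base words, 35.6% are shared with transcripts of other genes, and its value is uncertain. For Kcnab3, Kcnab2 and Kcnj16 the log2 fold changes were 0.14, 0.16 and 0.20, with 95% intervals of -0.082 to 0.36, -0.098 to 0.42 and -0.16 to 0.55.

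Among the lower members, Kcnb2 (ENSMUSG00000092083.5), a Kv2 delayed rectifier, was at 23.6, 26.1, 32.9, 28.2 and 29.03 CPM under vehicle and at 29.9, 26, 25.6, 23.2 and 22.9 CPM under AM6545 (log2 fold change -0.13 ± 0.11 SE, 95% interval -0.36 to 0.10). Kcnh6 had a larger fold change on 11 to 26 counts (log2 fold change -0.33 ± 0.28 SE, 95% interval -0.93 to 0.27). Kcnk1, the most abundant member, was at 218, 189, 250.1, 206 and 191 CPM and at 199.8, 175, 240.1, 185 and 170.3 CPM (log2 fold change -0.12 ± 0.11 SE, 95% interval -0.36 to 0.12), with 3 AM6545 libraries below all vehicle libraries. Kcnd2 was at 109.9, 113, 119, 116 and 111 CPM and at 103, 108, 119, 111 and 92.1 CPM (log2 fold change -0.091 ± 0.091 SE, 95% interval -0.28 to 0.10). For Kcnd2, 3 AM6545 libraries lay below all vehicle libraries, whose values were close together, and AM6545 replicate 3 lay just above all of them. Kcns3 and Kcnq3 had log2 fold changes of -0.14 and -0.089, with 95% intervals of -0.41 to 0.13 and -0.29 to 0.11.

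**Figure D3:**
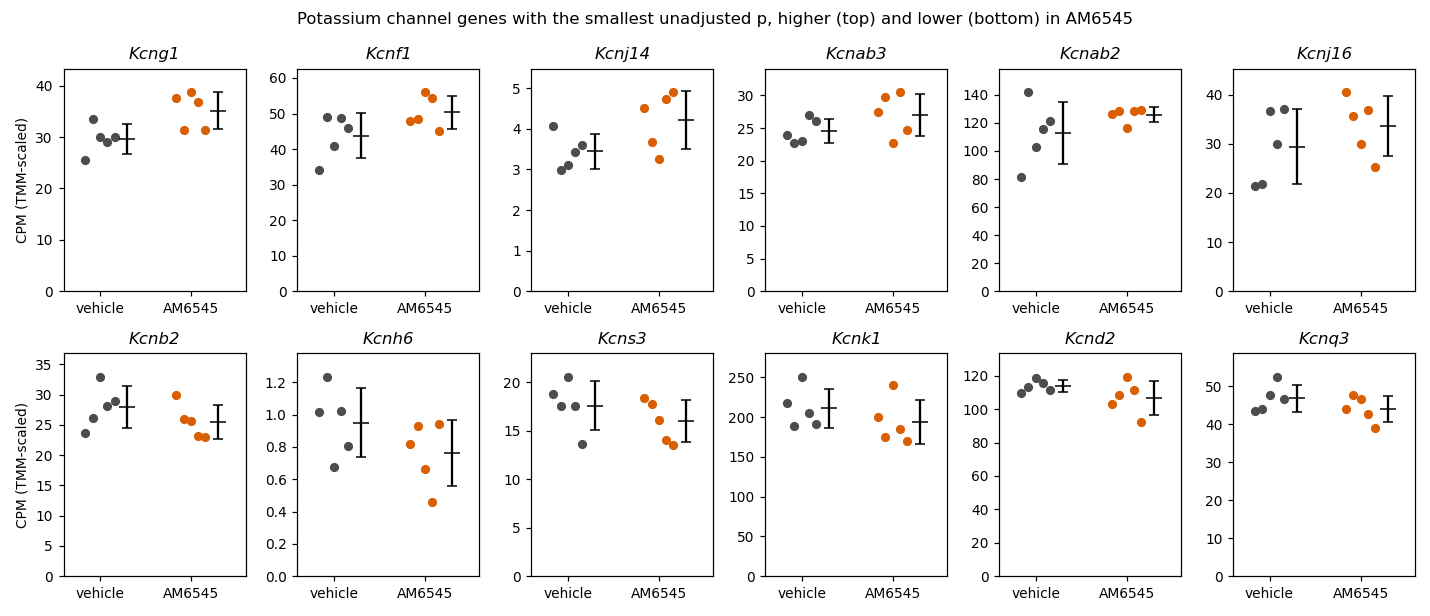
CPM (scaled by TMM) in each of the 5 vehicle (grey) and 5 AM6545 (orange) libraries for the 6 higher members (top row) and 6 lower members (bottom row) with the smallest unadjusted p; the bar is the mean with the SD. In every panel the 2 groups overlap, and for Kcng1 3 AM6545 points lie above all vehicle points.

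The other leading genes of their subfamilies had differences within the spread of the libraries. Kcna1 had 125 ± 21.8 CPM under vehicle against 124 ± 12.4 CPM under AM6545 (± SD, n = 5 per group), with a 95% interval of the log2 fold change of -0.27 to 0.26. Kcna2, Kcnc1, Kcnip3 and Kcnn2 had log2 fold changes of -0.013, 0.0078, -0.00089 and -0.011, and the direction of each changes when single libraries are left out. Kcnma1 had 181 ± 16.6 CPM under vehicle against 173 ± 23.9 CPM under AM6545 (± SD, n = 5 per group), a log2 fold change -0.059 ± 0.11 SE, 95% interval -0.29 to 0.17. Kcnq5 had a log2 fold change -0.023 ± 0.13 SE, 95% interval -0.30 to 0.26. Kcnab1 was at 113, 169, 137, 176 and 155 CPM under vehicle and at 169, 173, 129, 153 and 169.7 CPM under AM6545, with vehicle replicate 1 lowest (log2 fold change 0.080 ± 0.12 SE, 95% interval -0.18 to 0.34). Kcnip2, the leading KChIP gene, was likewise lowest in vehicle replicate 1, at 90.9, 154, 126, 128 and 123 CPM under vehicle and at 124, 115, 136, 127 and 136 CPM under AM6545 (log2 fold change 0.034). Kcnmb4, Kcnh3 and Kcng2 had log2 fold changes of 0.026, 0.063 and -0.016.

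The members also differed between libraries of a group. Relative to its own mean over the 10 libraries, the median tested member was lowest in AM6545 replicate 2, at -0.11 on the log2 scale, vehicle replicate 1 (-0.095) and AM6545 replicate 5 (-0.086). It was highest in AM6545 replicate 3 (0.11). The median over all tested genes lay between -0.011 and 0.015. Low libraries for the family occurred in both groups. The median coefficient of variation of a tested member was 14.1%, beside 14.5% over all tested genes. Kcnj4, a Kir channel of neurons, spread from 5.34 CPM in vehicle replicate 1 to 19.4 CPM in vehicle replicate 2. The 5 most variable tested members were Kcne2 (67.8%), Kcnj13 (67.3%), Kcnk5 (56.8%), Kcne3 (37.98%) and Kcnh8 (36.02%). Kcnk5, Kcne3 and Kcnh8 rested on 4 to 24 counts per library.

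Kcnj13 and Kcne2 were abundant and still varied most. Kcnj13 (ENSMUSG00000079436.4, chr1:87386363-87394729, minus strand) encodes an inward rectifier of the choroid plexus epithelium, the tissue that secretes cerebrospinal fluid. It was at 162, 130.0, 162, 2.62 and 81.05 CPM in vehicle libraries 1 to 5 and at 63.4, 23.9, 111, 21.02 and 99.4 CPM in AM6545 libraries 1 to 5. Vehicle replicate 4 was far below every other library, on 64 counts. Kcne2 (ENSMUSG00000039672.13, chr16:92292389-92298129, plus strand), an auxiliary subunit also found in that epithelium, was at 47.4, 32.97, 41.5, 0.614 and 27.7 CPM and at 15.2, 7.91, 17.9, 8.198 and 39.9 CPM, with the same library lowest on 15 counts. The summed choroid plexus markers were at 9098, 7293, 9919, 430.0 and 6770.3 CPM under vehicle and at 4589.6, 2263, 6835, 2188 and 7642 CPM under AM6545, so vehicle replicate 4 was lowest and AM6545 replicates 2 and 4 next lowest for the markers and for both members. All 10 markers were lowest in vehicle replicate 4.

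The log2 fold change of Kcnj13 was -0.76 with a 95% interval of -2.78 to 1.26, and that of Kcne2 was -0.75 with an interval of -2.66 to 1.15. Without vehicle replicate 4 they were -1.07 ± 0.55 SE and -1.07 ± 0.49 SE. With the choroid plexus marker score as a covariate they were -0.064 ± 0.145 SE and -0.073 ± 0.21 SE. Exons of Gigyf2 overlap 49.1% of the exonic bases of Kcnj13 on the opposite strand.

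**Figure D4:**
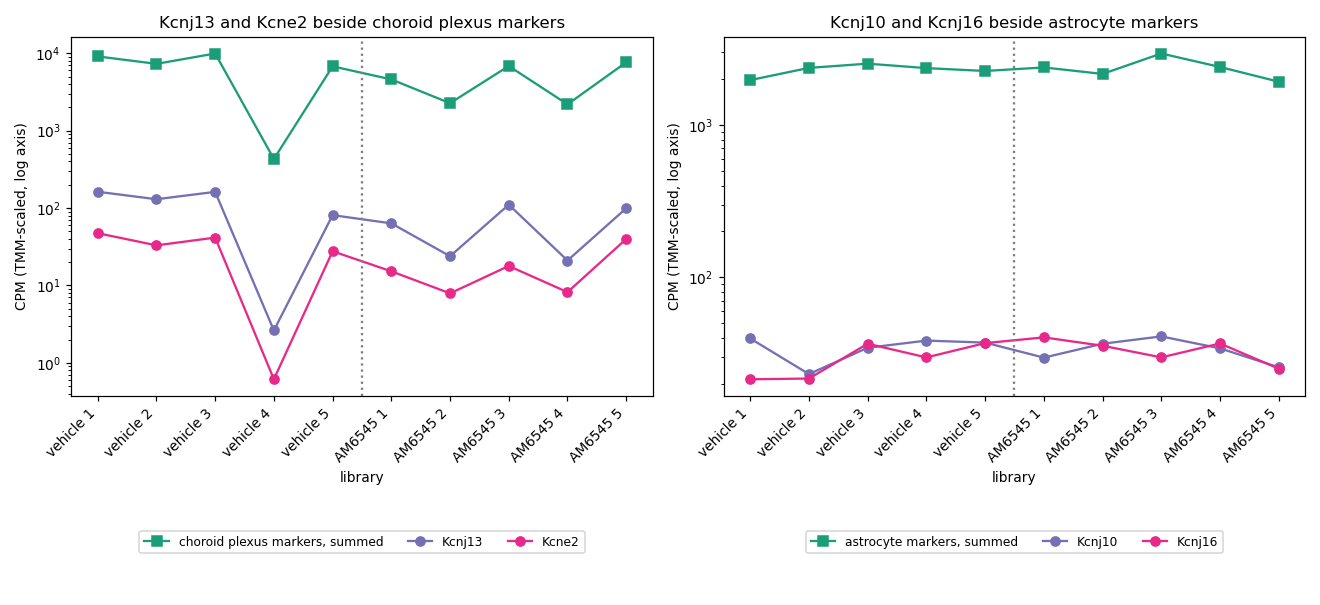
CPM (scaled by TMM, log axis) in each library, vehicle left and AM6545 right of the dotted line. On the left, Kcnj13 and Kcne2 are drawn beside the sum of 10 choroid plexus markers, and all 3 lines are lowest in vehicle replicate 4; on the right, Kcnj10 and Kcnj16 are drawn beside the sum of 6 astrocyte markers, and AM6545 replicate 3 is highest for the markers and for Kcnj10.

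A pair of Kir genes is best known from glia, where they clear potassium. Kcnj10, which encodes the main astrocytic Kir channel, was at 39.8, 23.3, 34.6, 38.5 and 37.4 CPM under vehicle and at 29.8, 36.8, 41.1, 34.3 and 25.8 CPM under AM6545 (log2 fold change -0.051 ± 0.15 SE, 95% interval -0.36 to 0.26). Kcnj16, which encodes its partner subunit, was at 21.5, 21.7, 36.8, 29.9 and 37.1 CPM and at 40.5, 35.7, 29.9, 36.9 and 25.2 CPM. Astrocyte markers summed to 1963, 2360.3, 2515, 2352 and 2253 CPM under vehicle and to 2376, 2154, 2932, 2393 and 1916 CPM under AM6545. AM6545 replicate 3 was highest for the markers and for Kcnj10 but not for Kcnj16. Kcnj8, a KATP channel gene of pericytes, was at 1.38 TPM, and the neuronal KATP gene Kcnj11 at 6.25 TPM. The pericyte and smooth muscle list (8 genes) summed to 79.2 to 171 CPM under vehicle and 80.8 to 145 CPM under AM6545. The part of astrocytes and pericytes in the differences of these genes was not tested.

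At the level of single transcripts, 395 transcripts of the members were in the table, and 158 from 76 members passed the filter. In edgeR's quasi-likelihood test 0 had an adjusted p below 0.05 (smallest 0.9999), against 0.00314% of 31848 tested transcripts, and 1 had an unadjusted p under 0.05, against 1.97%. DESeq2 and limma-voom also called 0 member transcripts. Of the 158, 77 were higher and 81 lower in AM6545 libraries. The transcript with the smallest p was Kcng1-202 (ENSMUST00000109191.2), which held 96.9% of the Kcng1 level (log2 fold change 0.25 ± 0.10 SE). Kcnn2-201 (ENSMUST00000066890.14) was at 8.82, 9.37, 15.8, 12.3 and 7.86 CPM under vehicle and at 20.3, 22.6, 15.6, 15.7 and 7.75 CPM under AM6545 (log2 fold change 0.60 ± 0.29 SE), with 2 AM6545 libraries above and 1 below all vehicle libraries. It encodes a longer SK protein, from 2517 coding bases, than the leading transcript Kcnn2-208, from 1722. The third was Kcnf1-201, the only listed transcript of Kcnf1 (log2 fold change 0.20 ± 0.12 SE). The lower transcripts of smallest p were Kcnn1-207, on 0 to 23 counts per library, Kcnh7-203 (log2 fold change -0.40 ± 0.26 SE) and Kcnc1-202 (log2 fold change -0.22 ± 0.15 SE).

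For 41 of the 77 tested members a single transcript held over 90% of the gene's level per length, and for 4 (Kcnk4, Kcnk10, Kcnma1 and Kcnt1) the leading transcript held under 50%. Of the 77, 13 have only 1 listed transcript, Kcnd2 among them, which fixes their share at 100%. For Kcnj13, with 2 listed transcripts, the leading transcript held 100%. Kcnj3 was divided between Kcnj3-202, with 705 coding bases, and Kcnj3-201, with 1503. The shorter form held 67.5 ± 6.06% under vehicle and 65.3 ± 6.96% under AM6545 (± SD, n = 5 per group), and it was the larger in all 10 libraries. It keeps the filter codons shown above. Exons of the non-coding gene Gm26794, on the opposite strand and not in the gene table, overlap 31.1% of Kcnj3-201 and 17.1% of Kcnj3-202. Kcnn2-208 held 56.6 ± 4.797% under vehicle and 56.7 ± 1.63% under AM6545 (± SD, n = 5 per group). Kcnab2 was divided between Kcnab2-205 and Kcnab2-207, and the share of Kcnab2-205 varied from 40.6% to 77.4% over the libraries. Kcnc1-202, a processed transcript of 531 bases without an annotated protein, held 51.9 ± 4.45% under vehicle and 48.2 ± 1.79% under AM6545 (± SD, n = 5 per group), and the high level per length of Kcnc1 rests in part on it. Kcna6 was the other gene whose leading transcript is not annotated as protein-coding, since Kcna6-201 is listed as a target of nonsense-mediated decay.

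**Figure D5:**
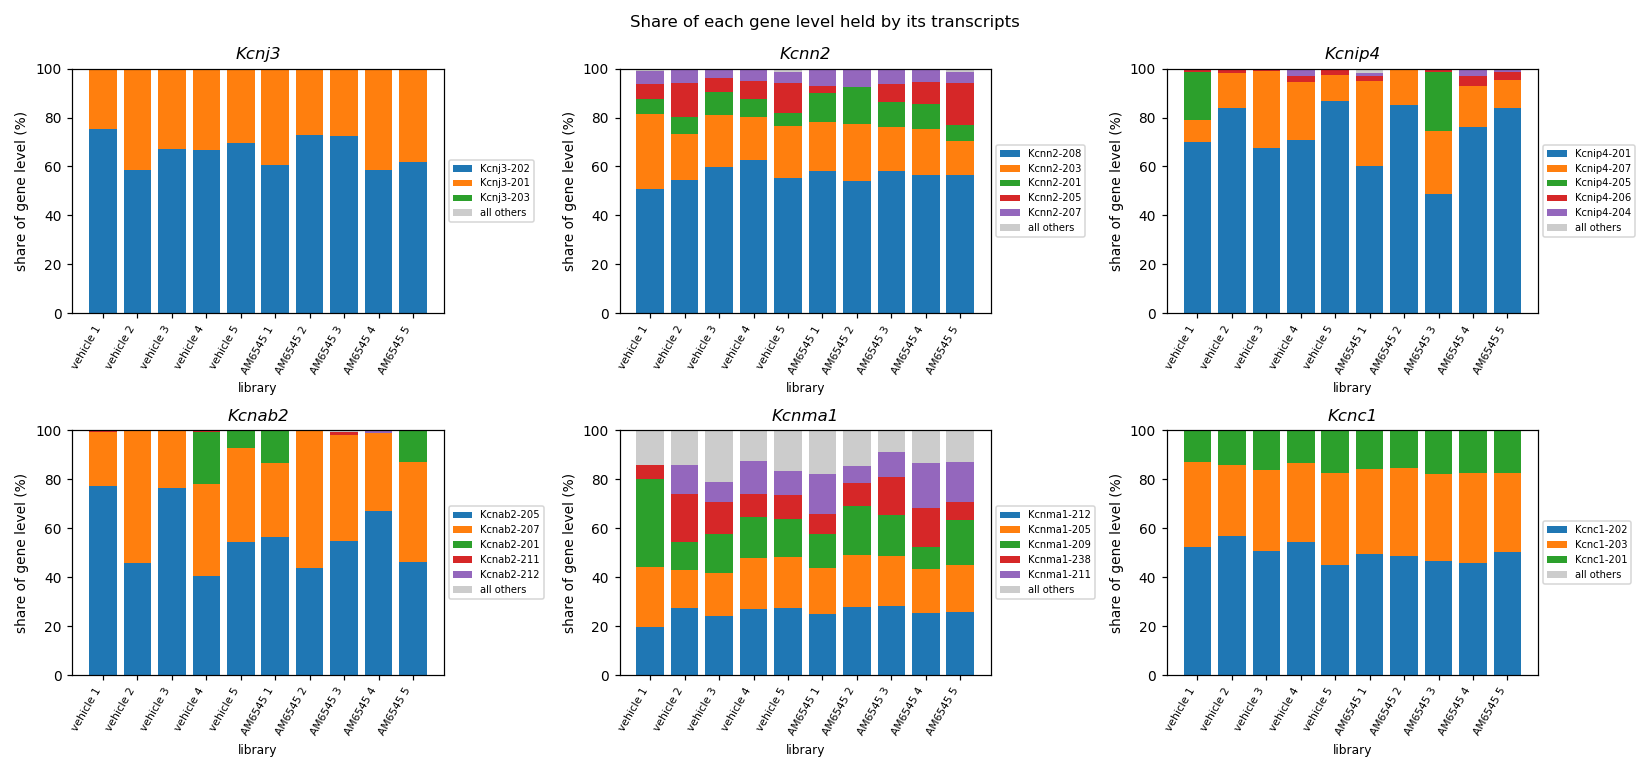
Share (%) of each gene's level per length held by its 5 leading transcripts in each of the 10 libraries, for Kcnj3, Kcnn2, Kcnip4, Kcnab2, Kcnma1 and Kcnc1. Kcnj3-202 holds over 50% in every library, whereas Kcnab2-205 ranges from 40.6% to 77.4% and Kcnip4-201 from 48.7% to 86.6%.

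Genes outside the rule that assemble with, anchor or regulate these channels were listed as 31 partners, of which 28 passed the filter. In edgeR's test 0 partners had an adjusted p below 0.05, and DESeq2 and limma-voom also called 0. At an unadjusted p under 0.05 edgeR gave 2 of 28, both higher in AM6545, against 1.88% of all tested genes in either direction and 1.14% in the higher direction alone. Of the 28, 16 were higher and 12 lower, with a median log2 fold change of 0.013. Gnb4, a G protein beta subunit of the kind that opens GIRK channels, had 20.03 ± 0.459 CPM under vehicle and 23.7 ± 2.16 CPM under AM6545 (± SD, n = 5 per group; log2 fold change 0.24 ± 0.095 SE, 95% interval 0.043 to 0.44, edgeR adjusted p = 0.9998). Its values were 19.8, 20.1, 20.3, 19.4 and 20.6 CPM under vehicle and 21.03, 21.8, 24.6, 25.3 and 25.8 CPM under AM6545. The groups of Gnb4 did not overlap, as for 0.293% of all tested genes. Sptbn4, the spectrin of the axon initial segment where Kv7 channels are anchored, had 21.9 ± 3.53 and 26.4 ± 1.03 CPM (± SD, n = 5 per group; log2 fold change 0.27 ± 0.11 SE, 95% interval 0.034 to 0.50). The lower partners of smallest p were Cntnap2, a Kv1 clustering protein (log2 fold change -0.13 ± 0.10 SE, 95% interval -0.35 to 0.077), and the calmodulin gene Calm2 (log2 fold change -0.13 ± 0.13 SE, 95% interval -0.40 to 0.14). The Kv4 partners Dpp6 and Dpp10 had log2 fold changes of -0.0079 and 0.15, and the Kv2 partner Amigo1 had -0.028.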

How the data were processed

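RNA from hippocampal synaptoneurosomes was sequenced in 5 vehicle and 5 AM6545 libraries, grouped by the labels. Libraries were made from total RNA with a SMARTer low-input kit, per the labels' protocols. Per the submitters' processing notes, the authors used Salmon 1.5.2 and mm10, and they deposited estimated counts per gene and per transcript. The annotation release and the strand setting are not given in the sources used here. Some of these counts are not whole, and they were rounded to whole numbers.

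Symbols were found for 22155 of 22255 gene identifiers. Lengths and coding sequences were taken from GENCODE M21. Genes were filtered with filterByExpr (minimum count 10), scaled by TMM and fitted with a quasi-likelihood model (edgeR 4.0.16, group as the only term, robust dispersions), with Benjamini-Hochberg adjustment over all 14358 genes or all 31848 transcripts. The 95% intervals came from that fit. CPM values were scaled by TMM. TPM values were computed from the transcript counts and annotated lengths. The fits were tested on simulated data. With library totals of 18106011 to 25899665 counts, 3 counts are the limit that a count of 0 allows, and this covers counting error only.

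The genes named were the 6 higher and 6 lower members of smallest unadjusted p, leading members of subfamilies, the GIRK genes, the 5 most variable members, 3 transcripts and 2 partners in each direction. Results of 3 members are not reported here. Members and lists were chosen with earlier results of these data known. Alternatives were DESeq2 1.42.0 (size factors and Wald test), limma-voom (limma 3.58.1), total count scaling, no filter, non-robust dispersions, a floor of 10 counts in each library, a replicate block, a choroid plexus score as covariate, and each library left out.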

Additional observations from a re-analysis of the deposited data

Results flagged for a closer look

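A library was flagged where it lay far from the other 4 of its group for a named gene, by Dixon's test at the 95% level. Of 66 groups tested, 4 were flagged, and chance flags about 1 in 20 groups, or 3.3 of 66. Kcnj3, the common GIRK subunit, was flagged in both groups, at 75.6 CPM in vehicle replicate 1, where the others lay from 92.97 to 94.8 CPM, and at 75.4 CPM in AM6545 replicate 5, where the others lay from 87.5 to 89.6 CPM. Kcnc1, a Kv3 gene, was at 88 CPM in vehicle replicate 2, against 105 to 112 CPM in the other vehicle libraries. Kcnab2, a Kv beta gene, was at 116 CPM in AM6545 replicate 3, against 126 to 129 CPM in the other AM6545 libraries.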

How the results depend on the processing

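No member, member transcript or partner had an adjusted p under 0.05 in any alternative run with edgeR, DESeq2 or limma-voom. The number of members at an unadjusted p under 0.05, 1 as reported, was 4 with limma-voom and 2 with no filter (Kcng1 and Kcnj15, which had 0 to 3 counts per library). When single libraries were left out it was 0 to 3, with 3 without vehicle replicate 2 and 0 without vehicle replicate 1 or 4 or AM6545 replicate 1 or 4. The number of members whose groups do not overlap, 0 as reported, was 0 to 1 when single libraries were left out: Kcnj3 without vehicle replicate 1, where 0.794% of all genes did so, and Kcng1 without vehicle replicate 2, where 1.11% did. With gene counts divided by the longest transcript, 43 members instead of 42 were at or above 10 TPM. Of 43 fold changes of single genes or transcripts, 26 kept their sign in every alternative, and none reached an adjusted p under 0.05.

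Fold changes close to 0 in the reported fit changed sign. With limma-voom Kcne3, on 6 to 20 counts per library, moved strongly, from -0.046 to 0.55 on the log2 scale. Kcng2 was at 0.022 with limma-voom. With total count scaling Kcnip3 was at 0.0022 and Kcnk5 at -0.0076, and DESeq2's Wald test gave -0.014 for Kcnk5. The cause was not tested. With single libraries left out, the fold change ranged from -0.11 to 0.044 for Kcna1, -0.059 to 0.048 for Kcna2, -0.0056 to 0.15 for Kcnab1, -0.068 to 0.087 for Kcnc1, -0.22 to 0.14 for Kcne3, -0.058 to 0.057 for Kcng2, -0.016 to 0.14 for Kcnh3, -0.20 to 0.20 for Kcnh8, -0.060 to 0.12 for Kcnip2, -0.060 to 0.050 for Kcnip3, -0.17 to 0.030 for Kcnj10, -0.16 to 0.029 for Kcnj6, -0.0029 to 0.097 for Kcnj9, -0.29 to 0.42 for Kcnk5, -0.096 to 0.023 for Kcnma1, -0.059 to 0.043 for Kcnn2 and -0.11 to 0.069 for Kcnq5. With no change of sign, it was 0.20 to 0.29 for Kcng1, 0.12 to 0.25 for Kcnf1, 0.24 to 0.37 for Kcnj14, 0.093 to 0.19 for Kcnab3, 0.063 to 0.26 for Kcnab2, 0.10 to 0.29 for Kcnj16 and 0.0025 to 0.047 for Kcnmb4. It was -1.07 to -0.53 for Kcnj13, -1.29 to -0.53 for Kcne2, -0.20 to -0.065 for Kcnb2, -0.42 to -0.18 for Kcnh6, -0.21 to -0.051 for Kcnk1, -0.13 to -0.042 for Kcnd2, -0.22 to -0.077 for Kcns3, -0.12 to -0.045 for Kcnq3 and -0.12 to -0.024 for Kcnj3. For the partners it was 0.21 to 0.28 for Gnb4, 0.21 to 0.36 for Sptbn4, -0.19 to -0.090 for Cntnap2 and -0.18 to -0.039 for Calm2. Several of these moved by over 1.5 times, and none was a call.

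Libraries of the 2 groups share replicate numbers. Same-numbered libraries had correlations of deviations of -0.166, -0.218, 0.276, 0.426 and 0.0567, of which 2 were negative, and the labels tie no number to a shared animal or batch, so the fit without the block is the one reported. Of 10 libraries, 5 correlated best with their own number, a count for which no chance level was computed. Whether some libraries are paired was not tested. With the replicate number as a block, 0 members were at an unadjusted p under 0.05, Kcna1 was at 0.0069 and Kcnc1 at -0.0081, and no call changed. Depth limits most the tested members of lowest count, such as Kcnk5 (4 to 24 counts per library), Kcnh8 (5 to 18) and Kcna5 (8 to 21).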

Other observations

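Some members that lie next to each other in the genome differed in level, and others were close. On chromosome 3 the Kv1 genes Kcna3 and Kcna2 lie 63.1 kb apart and were at 9.89 and 13.8 TPM, with overlapping ranges over the libraries. On chromosome 1 the neuronal GIRK gene Kcnj9 and the glial gene Kcnj10 lie 11.9 kb apart and were at 42.9 and 12.2 TPM. On chromosome 6 the Kv1 genes Kcna1 and Kcna6 lie 61.9 kb apart, at 71.1 and 11.4 TPM. On chromosome 16 the KCNE genes Kcne2 and Kcne1 lie 47.9 kb apart, at 27.8 and 0.0189 TPM. On chromosome 11 Kcnj16 and Kcnj2, both Kir genes, lie 38.2 kb apart, at 16.8 and 2.42 TPM. On chromosome 11 Kcnmb1, a BK beta gene of smooth muscle, lies within the bounds of the KChIP gene Kcnip1, and was at 0.2405 TPM beside 36.7 TPM.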
